A study of Mus musculus with 6 samples.

Results

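The mitochondrial enzymes of the tricarboxylic acid cycle were examined in mouse myotubes after knockdown of DJ-1. The list held 9 genes (CS, IDH2, IDH3A, IDH3G, OGDH, DLST, SUCLA2, FH1 and MDH2), and every probe that the array file lists under one of these names was taken, which gave 14 of 45281 probes, for 9 of the 30854 gene names in the file. Of these, 13 were detected well enough to be tested. IDH2, the NADP-dependent isocitrate dehydrogenase of mitochondria, was the only listed enzyme called higher, at 1.53 times the Scramble level (95% interval 1.26 to 1.86, n = 3 arrays per group, adjusted p = 0.0116 from limma). None of the 13 probes was called lower by limma, 1 of them (an IDH3A probe) was lower at an unadjusted p under 0.05, and the methods' t-test with the same adjustment also called 0 lower, with 2 below 0.05 before adjustment and lower. The name stands for a plain test without moderation, which the study's methods give for values in general, whereas a moderated test was used for its arrays. In the whole data set 30.1% of the tested probes were called, 16.5% higher and 13.6% lower, so that 1 call among 13 probes (7.69%) was a smaller share than among all probes.

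C2C12 cells are mouse myoblasts of an established line, which stop dividing and fuse into myotubes when serum is lowered. Myoblasts in growth medium received 60 nM of either a scramble siRNA (the Scramble group, 3 samples) or an siRNA against DJ-1, the product of the Park7 gene (the siDJ-1 group, 3 samples). After 48 h both groups were moved to medium with little horse serum, and total RNA was taken after 96 h (4 days) of differentiation. The transfection preceded differentiation, so that a difference in the myotubes and a difference in how the myoblasts differentiated cannot be told apart. The labels number the replicates without saying that they came from separate cultures, and the p-values measure the spread between these samples, which may be technical. The cells are of a single line, and in RNA of a whole culture, fewer cells of a type and less RNA per cell cannot be told apart.

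In the cycle, citrate synthase joins acetyl-CoA to oxaloacetate, and further on isocitrate is oxidized to oxoglutarate either by the NAD-dependent enzyme, a complex of IDH3A, IDH3B and IDH3G, or by the NADP-dependent IDH2. Oxoglutarate dehydrogenase, succinyl-CoA ligase, succinate dehydrogenase, fumarase and malate dehydrogenase then return the carbon to oxaloacetate, and the NADH and reduced flavin made on the way feed the respiratory chain. Muscle mitochondria are rich in these enzymes, and citrate synthase activity is widely used as a measure of mitochondrial content in muscle. IDH2 makes NADPH in the mitochondrial matrix, which serves the glutathione and thioredoxin systems that remove peroxides.

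The isocitrate-oxidizing enzymes include called and uncalled genes, and 3 of their promoters are shown so that the gene called higher in the list (IDH2), the IDH3 subunit called higher outside it (IDH3B) and a subunit of the same complex that was not called (IDH3G) can be read side by side. IDH3A is the remaining subunit. Each run is the 250 bases before the RefSeq start of the gene in GRCm38.p6, 5′ to 3′ on the strand of the gene, and capitals mark a match to 1 of 3 motifs. The Idh2 window lies at chr7:80115351-80115600 on the minus strand, the Idh3b window at chr2:130284452-130284701 on the minus strand, and the Idh3g window at chrX:73786898-73787147 on the minus strand.
Idh2 promoter: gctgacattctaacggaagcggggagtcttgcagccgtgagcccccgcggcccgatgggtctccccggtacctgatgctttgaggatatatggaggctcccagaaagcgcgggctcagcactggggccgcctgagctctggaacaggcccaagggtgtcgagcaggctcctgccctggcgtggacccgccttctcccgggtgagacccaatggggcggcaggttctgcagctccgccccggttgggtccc
Idh3b promoter: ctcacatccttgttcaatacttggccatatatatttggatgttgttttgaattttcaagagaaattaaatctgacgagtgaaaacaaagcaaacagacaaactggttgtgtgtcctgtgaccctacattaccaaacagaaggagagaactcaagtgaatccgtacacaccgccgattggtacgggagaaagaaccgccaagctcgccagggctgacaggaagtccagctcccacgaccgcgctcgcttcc
Idh3g promoter: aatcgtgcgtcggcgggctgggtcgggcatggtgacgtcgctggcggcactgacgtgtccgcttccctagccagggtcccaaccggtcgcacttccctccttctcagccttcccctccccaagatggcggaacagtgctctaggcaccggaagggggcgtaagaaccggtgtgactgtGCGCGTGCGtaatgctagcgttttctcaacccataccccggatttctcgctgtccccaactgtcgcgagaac

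The motifs were those of 3 factors known to act on genes of mitochondria, searched on both strands: TNAAGGTCA for ESRRA, GCGCNTGCG for NRF1 and CCGGAAGT for GABPA. A first search used an NRF1 form longer by 1 letter, and motifs of HIF1A and YY1 that were then left out and are not reported. The NRF1 letters were cut after its matches had been seen, and the match in the Idh3g window and those in the Ogdh windows come only from the shorter form. Of the 10 genes looked up (the 9 listed and Idh3b), 9 had a promoter in the table, all but Idh3a, which was not searched. The Idh3g window held 1 match, to GCGCNTGCG, which begins 72 bases before the start site. GCGCNTGCG was found in 5.19% of the 32851 promoters of the same length. Elsewhere in the list it matched in the Sucla2 window and in those of 2 of the 6 Ogdh start sites. None of the windows searched held TNAAGGTCA, found in 1.14% of promoters, or CCGGAAGT, found in 2.88%, and the Idh2 and Idh3b windows held no match to any of the 3. These are matches of letters and not measured binding.

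Every probe was read on several beads of each of the 6 arrays, which were all on 1 BeadChip. In Scramble the median intensity of an array was 162, 167 and 154, and in siDJ-1 it was 161, 167 and 152. With a detection p under 0.05, between 16985 and 18179 probes were detected on a Scramble array and between 18408 and 18857 on a siDJ-1 array. A probe was tested when it was detected on at least 3 arrays, which left 17890 probes, and it was called when its Benjamini-Hochberg adjusted p over all of these was under 0.05. Signals below are log2 of the background-corrected, quantile-normalized intensity, and log2 fold changes are siDJ-1 minus Scramble, unless a value is named as deposited intensity.

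The targeted gene was lower on every siDJ-1 array. The PARK7 probe had a deposited intensity of 12020, 10900 and 12251 in Scramble and of 5935, 6586 and 4234 in siDJ-1. The groups did not overlap. Normalized signal fell by 1.16 on the log2 scale (95% interval -1.49 to -0.84, adjusted p = 0.00344 from limma), which left 44.7% of the Scramble level.

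**Figure D1:**
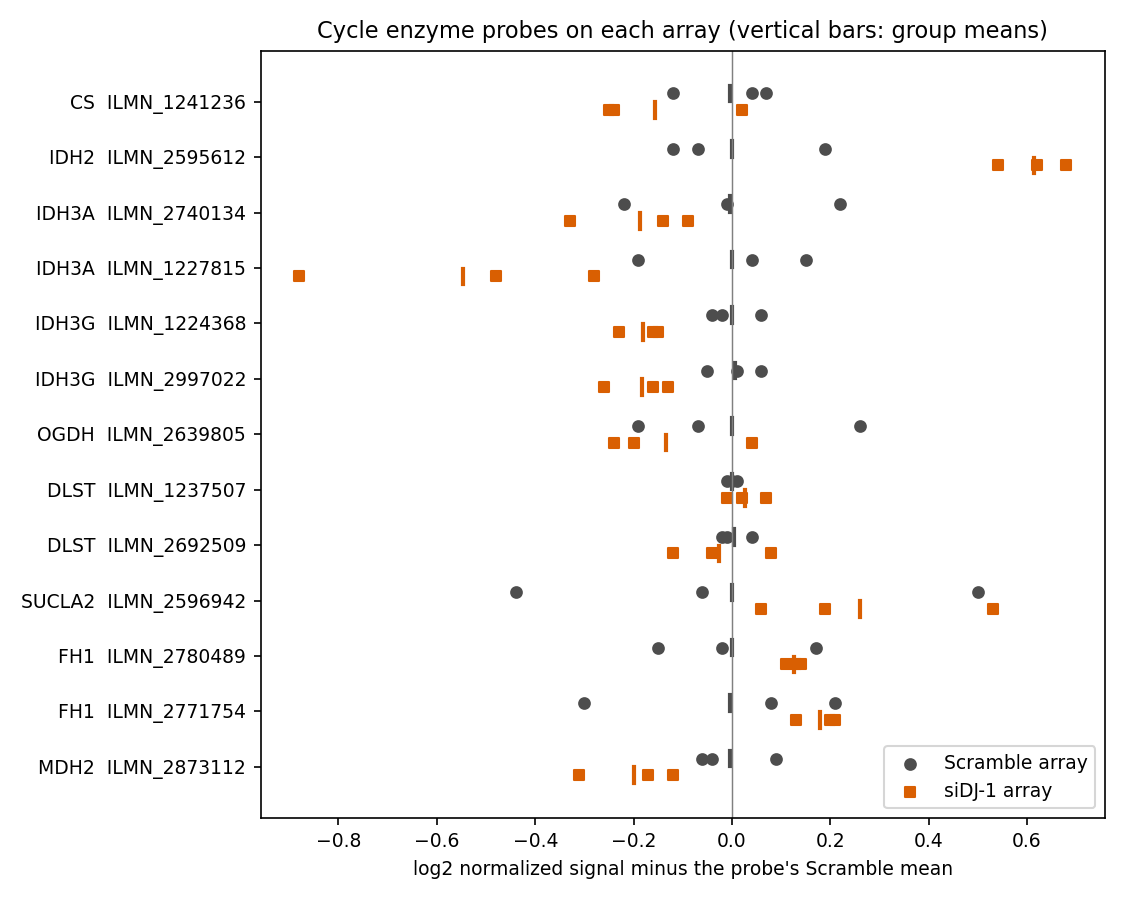
Normalized log2 signal of each of the 13 tested probes of the listed enzymes on each array, less the mean of the 3 Scramble arrays for that probe. Circles are Scramble arrays, squares siDJ-1 arrays, and vertical bars group means. The 3 IDH2 squares lie to the right of all 3 circles, those of IDH3A ILMN_1227815, both IDH3G probes and MDH2 lie to the left of theirs, and the other probes overlap.

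Citrate synthase, which opens the cycle, was read by 1 probe. CS read 11.72, 11.56 and 11.75 in Scramble and 11.44, 11.70 and 11.43 in siDJ-1. The siDJ-1 values of replicates 1 and 3 lay below all Scramble values and that of replicate 2 lay among them. The log2 fold change was -0.16 with an interval from -0.44 to 0.13 (adjusted p = 0.360 from limma), an interval that holds changes in either direction. It was -0.03 under the 75th percentile shift, -0.08 with that shift and no background correction, and -0.25 without siDJ-1 replicate 2.

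IDH2 stood higher on each of the siDJ-1 arrays. Its deposited intensity was 4940, 4073 and 4048 in Scramble and 6981, 7444 and 5757 in siDJ-1, and its normalized signal was 12.24, 11.93 and 11.98 against 12.73, 12.67 and 12.59. The lowest siDJ-1 array was above the highest Scramble array. The mean rose from 12.05 ± 0.17 (SD, n = 3) to 12.66 ± 0.07 (SD, n = 3), a log2 fold change of 0.61 with a standard error of 0.12 and an interval from 0.33 to 0.89 (adjusted p = 0.0116 from limma). The standard error over beads of this probe was at most 5.89% of its signal on any array. Without siDJ-1 replicate 1 the log2 fold change was 0.58 and the adjusted p was 0.0520, past the threshold, whereas it stayed under 0.05 in each of the other 14 alternatives, and the adjusted p ranged from 8.5e-05 to 0.052 over all 15.

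Of the NAD-dependent isocitrate dehydrogenase, neither subunit of the list was called. IDH3A, the catalytic subunit, was read by 2 probes that differed in size of change. Probe ILMN_2740134 gave 9.73, 9.96 and 9.52 in Scramble and 9.60, 9.65 and 9.41 in siDJ-1, which overlap (log2 fold change -0.18, interval -0.52 to 0.16, adjusted p = 0.368 from limma), and its log2 fold change was -0.07 without Scramble replicate 2, -0.29 without Scramble replicate 3 and -0.11 without siDJ-1 replicate 3. The mean of the IDH3A probes gave a log2 fold change of -0.36 and was not called (adjusted p = 0.0687 from limma). Probe ILMN_1227815, which the file ties to a cDNA clone and which was not matched to a RefSeq gene, gave 9.18, 8.84 and 9.07 against 8.75, 8.55 and 8.15. All 3 siDJ-1 values of the latter probe were below the Scramble values, the one of replicate 3 by the widest margin. Its log2 fold change was -0.54 with an interval from -0.97 to -0.12 and missed the threshold (adjusted p = 0.0584 from limma). It was called lower in 4 of its 16 alternatives: without background correction under either scaling, with the stricter filter, and with a trend in the prior variance. Its adjusted p ranged from 0.0127 to 0.141 over the alternatives.

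IDH3G, a regulatory subunit of the same complex, was at 88.5% and 87.9% of the Scramble level on its 2 probes, and neither was called. Probe ILMN_1224368 read 10.95, 11.05 and 10.97 in Scramble and 10.76, 10.83 and 10.84 in siDJ-1. Probe ILMN_2997022 read 13.02, 12.91 and 12.97 against 12.80, 12.83 and 12.70. For both probes every siDJ-1 array was below every Scramble array, but the intervals of the log2 fold changes reached past 0 (-0.18, from -0.39 to 0.04, and -0.19, from -0.41 to 0.04, with adjusted p = 0.186 and 0.177 from limma). The second probe was called lower with a trend in the prior variance (adjusted p = 0.0374, in a range from 0.0374 to 0.829 over its 16 alternatives), and under the 75th percentile shift the log2 fold changes were -0.06 and -0.03 (-0.10 and -0.09 without background correction as well).

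IDH3B, the other regulatory subunit, was not in the list and rose, as IDH2 did. Its single probe read 11.35, 11.21 and 11.07 in Scramble and 11.59, 11.54 and 11.61 in siDJ-1, with no overlap. It rose to 1.29 times the Scramble level (log2 fold change 0.37, interval 0.11 to 0.62, adjusted p = 0.0420 from limma). The call was lost when any 1 array other than Scramble replicate 1 was left out: without each of those 5 in turn the log2 fold change was 0.30 to 0.39 and the adjusted p 0.0838 to 0.126. It was also lost with no filter and with the methods' t-test, and its adjusted p ranged from 0.0027 to 0.126 over 15 alternatives.

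The changes of these genes were also set against each other within each array, as a comparison chosen after the values were seen. Each array's deviation from the Scramble mean, averaged over the tested probes of a gene, was subtracted between genes. The change of IDH2 exceeded that of IDH3A by 0.98 on the log2 scale, with array values of 0.12, -0.14 and 0.02 in Scramble and 0.89, 0.90 and 1.14 in siDJ-1. It exceeded that of IDH3G by 0.80 and that of IDH3B by 0.25. Within the NAD-dependent complex, the change of IDH3B exceeded that of IDH3A by 0.73 and that of IDH3G by 0.55, again with no overlap between groups in either. The change of IDH3A was lower than that of IDH3G by 0.18, with overlapping groups. The IDH3A average holds the unmatched probe ILMN_1227815, and the matched probe alone (-0.18) lay at the level of the IDH3G probes. An exact two-sided permutation test of 3 arrays against 3 cannot give a p under 0.1, and no other test was run on these differences. They were chosen after the values were seen and are given as descriptions.

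**Figure D2:**
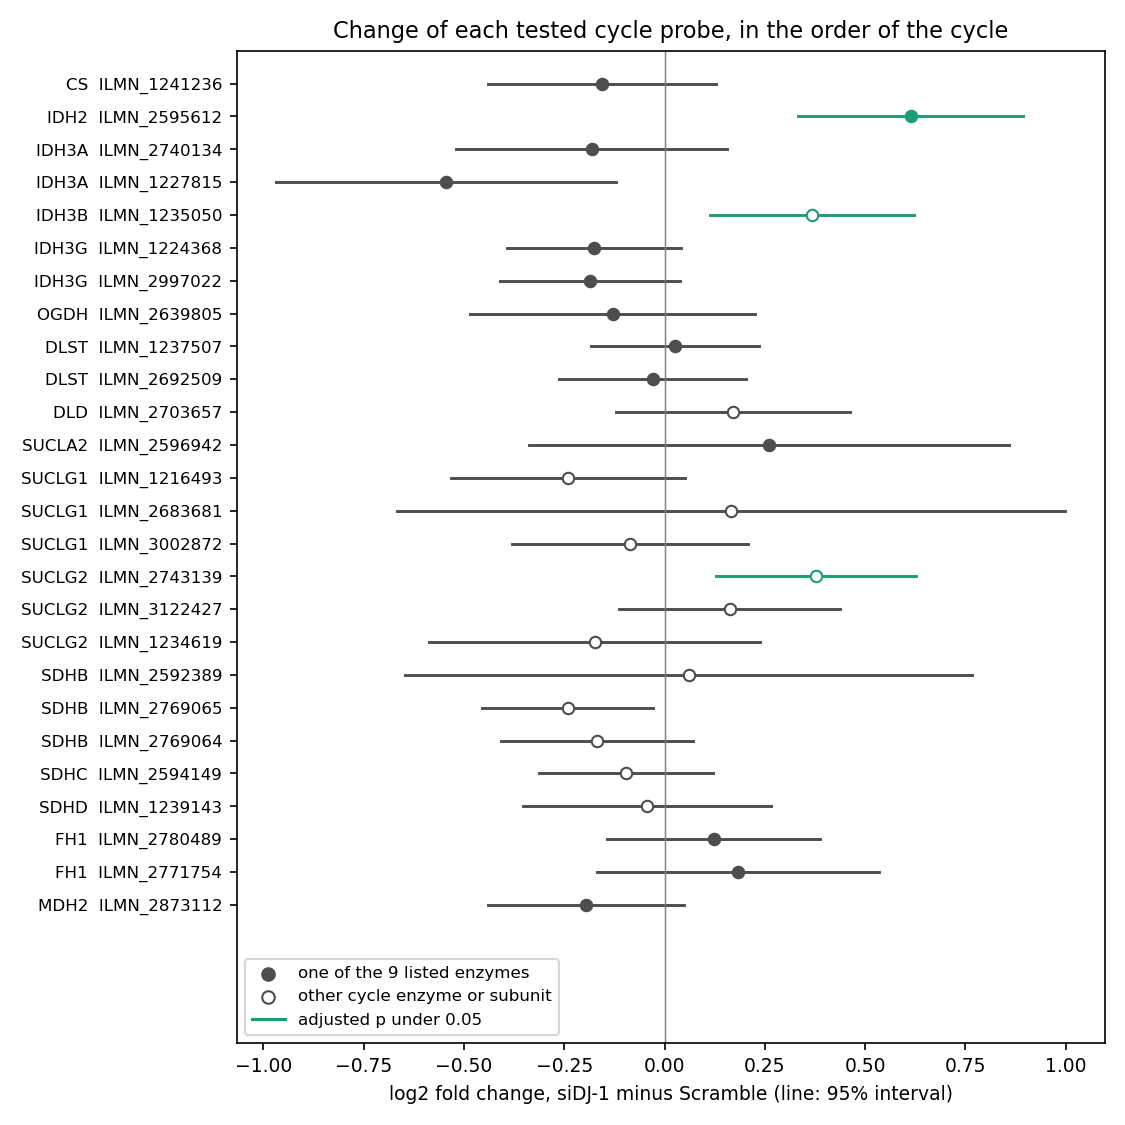
Log2 fold change, siDJ-1 minus Scramble, of the 26 tested probes of cycle enzymes, from citrate synthase at the top to malate dehydrogenase at the bottom, with 95% intervals from limma. Filled circles are the 9 listed enzymes, open circles other cycle enzymes and subunits, and green marks the 3 probes with an adjusted p under 0.05 (IDH2 at 0.61, IDH3B at 0.37 and SUCLG2 ILMN_2743139 at 0.38). The intervals of the other probes include 0, other than those of IDH3A ILMN_1227815 and SDHB ILMN_2769065.

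Oxoglutarate dehydrogenase is a complex of OGDH, DLST and DLD. The first OGDH probe (ILMN_2639805) read 9.14, 8.69 and 8.81 in Scramble and 8.92, 8.68 and 8.64 in siDJ-1, with Scramble replicate 1 above the rest and the groups overlapping (log2 fold change -0.13, interval -0.49 to 0.23, adjusted p = 0.548 from limma). Without Scramble replicate 1 the log2 fold change was -0.001, with array weights -0.02, without siDJ-1 replicate 3 -0.08, without Scramble replicate 2 -0.225 and without siDJ-1 replicate 1 -0.217. The second OGDH probe (ILMN_2691697) was not detected on any array and was not tested, with a deposited intensity between 128.1 and 157.7. DLST, the succinyltransferase core of the complex, had the smallest changes in the list as processed here. This order did not hold under the 75th percentile shift, where CS was at -0.03. Its probes differed by 0.026 (ILMN_1237507, interval -0.18 to 0.23) and -0.030 (ILMN_2692509, interval -0.26 to 0.20) on the log2 scale, with adjusted p = 0.848 and 0.844 from limma. Under the 75th percentile shift the first was 0.15 (0.09 without background correction), and the sign of the second turned, where it was 0.10 with background correction and 0.04 without.

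SUCLA2, the ATP-forming subunit of succinyl-CoA ligase, was near the limit of detection, on 1 of 3 Scramble arrays and 3 of 3 siDJ-1 arrays. It passed the filter with 4 detected arrays, most of them from the siDJ-1 group. Its deposited intensity was 185.9, 213.1 and 158.5 in Scramble and 188.2, 213.9 and 170.8 in siDJ-1, and the groups overlapped. The log2 fold change was 0.26 with a wide interval from -0.34 to 0.86 (adjusted p = 0.468 from limma), and it was 0.08 without background correction, 0.04 without Scramble replicate 3, 0.12 without siDJ-1 replicate 2 and 0.515 without Scramble replicate 2. No change of its message was detected, and the interval holds changes in either direction.

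FH1, the fumarase that hydrates fumarate to malate, was read by 2 probes with positive changes, neither of them called. Probe ILMN_2780489 had 12.18, 11.86 and 11.99 in Scramble and 12.15, 12.14 and 12.12 in siDJ-1, and probe ILMN_2771754 had 10.29, 9.91 and 10.42 against 10.42, 10.34 and 10.41. In both, Scramble replicate 2 was the low array and the siDJ-1 arrays lay close together, within the range of the Scramble arrays or at its upper end. The log2 fold changes were 0.12 (interval -0.14 to 0.39) and 0.18 (interval -0.17 to 0.53), with adjusted p = 0.441 and 0.384 from limma. Without Scramble replicate 2 they fell to 0.05 and 0.03. The first was 0.246 under the 75th percentile shift (0.185 without background correction as well) and 0.205 without Scramble replicate 1, and the second was 0.29 without Scramble replicate 3.

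MDH2, the mitochondrial malate dehydrogenase that closes the cycle, read 12.25, 12.12 and 12.10 in Scramble and 11.99, 12.04 and 11.85 in siDJ-1. Every siDJ-1 value was below every Scramble value. The log2 fold change of -0.20 had an interval from -0.44 to 0.05 and was not called (adjusted p = 0.194 from limma). Under the 75th percentile shift it was -0.06, and -0.115 without background correction as well.

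Across the 13 tested probes, 5 log2 fold changes were positive and 8 negative, and their median was -0.13 beside 0.05 for all tested probes. The values ran from -0.54 to 0.61, and the median size without regard to sign was 0.18, against 0.30 for all tested probes. In 5 of 13 probes (38.5%) the groups did not overlap: IDH2 upwards, and the second IDH3A probe, both IDH3G probes and MDH2 downwards. Groups that do not overlap were found for 48.5% of all tested probes. The median was -0.027 under the 75th percentile shift, -0.078 with that shift and no background correction, -0.023 with array weights, and -0.12 to -0.010 with 1 array left out, where the value nearest 0 came without Scramble replicate 1. Summed linear normalized signal of the 13 probes came to 38942, 35315 and 36690 in Scramble and to 37692, 38618 and 35569 in siDJ-1, which overlap.

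**Figure D3:**
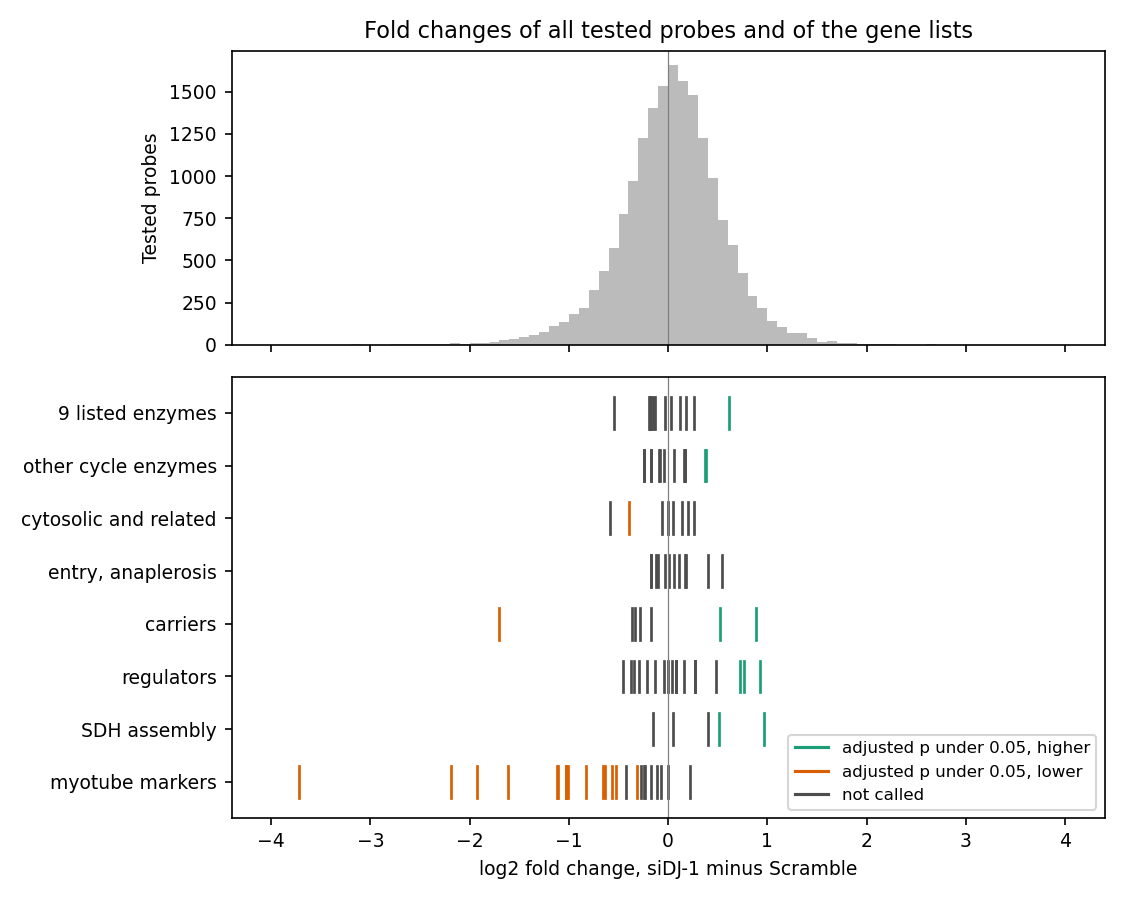
Upper panel, number of tested probes (17890 in all) by log2 fold change, siDJ-1 minus Scramble. Lower panel, each tested probe of 8 gene lists as a line at its log2 fold change, green where called higher, orange where called lower and grey where not called. The probes of the listed enzymes lie between -0.54 and 0.61. The leftmost line is MYH4, which was detected on 1 of 3 siDJ-1 arrays, so that its place is not exact.

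The cycle enzymes and subunits outside the list that are reported here had 21 probes, 13 of them tested, of which 2 were called higher and 0 lower by limma, with 2 higher and 1 lower at an unadjusted p under 0.05 and 1 called lower under each of the methods' t-test, no background correction, the stricter filter and a trend in the prior variance. Besides IDH3B, the second was a dim probe of SUCLG2, the GTP-forming counterpart of SUCLA2. SUCLG2 probe ILMN_2743139 read 5.82, 5.78 and 5.98 against 6.27, 6.31 and 6.14 and rose by 0.38 on the log2 scale (interval 0.13 to 0.63, adjusted p = 0.0368 from limma). Among its other tested probes, ILMN_3122427 gave 0.16 (adjusted p = 0.325) and ILMN_1234619 gave -0.17 (adjusted p = 0.482). The call of ILMN_2743139 was lost in 11 of 14 alternatives, over which the adjusted p ranged from 0.0265 to 0.227. Without background correction its log2 fold change was 0.13, and it was lost without each array in turn other than Scramble replicate 3, at an adjusted p of 0.0629 to 0.122. A further SUCLG2 probe, ILMN_3046836, was detected on 2 Scramble arrays and 0 siDJ-1 arrays and was not tested.

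No other tested probe of these enzymes was called. DLD, the dihydrolipoyl dehydrogenase shared with pyruvate dehydrogenase, gave 0.17 (adjusted p = 0.328). SUCLG1, the subunit common to both succinyl-CoA ligases, gave -0.24, 0.17 and -0.09 on its 3 probes (adjusted p = 0.182, 0.752 and 0.635). For succinate dehydrogenase, which is also complex II of the respiratory chain, SDHB gave 0.06, -0.24 and -0.17 (adjusted p = 0.895, 0.0840 and 0.244), SDHC -0.10 (adjusted p = 0.457) and SDHD -0.04 (adjusted p = 0.827). The SDHB probes at -0.24 (ILMN_2769065) and -0.17 (ILMN_2769064) had no overlap between groups, with 11.82, 11.71 and 11.81 in Scramble and 11.54, 11.53 and 11.54 in siDJ-1 for the first and 11.76, 11.59 and 11.60 against 11.41, 11.54 and 11.50 for the second. The 2 probes of the flavoprotein SDHA, those of DHTKD1 and OGDHL, 1 of DLD and 1 of SDHC were not detected on any array. The SDHA probes and that DLD probe were not matched to a RefSeq gene, so that absence of the SDHA message cannot be read from them. Over the cycle enzymes reported here, listed or not, 26 probes were tested and 3 were called, all higher (11.5%), with a median log2 fold change of -0.06. Among all tested probes 30.1% were called, 16.5% higher and 13.6% lower, with a median of 0.05.

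Among further enzymes that use cycle intermediates, most of them cytosolic, 8 probes were tested, 0 called higher (0 also at p under 0.05 before adjustment, and 0 by the methods' t-test) and 1 lower by limma, with 2 lower at an unadjusted p under 0.05. The number called lower was 2 without background correction, with the stricter filter, with array weights and without Scramble replicate 1, and 0 without Scramble replicate 2 or 3 or siDJ-1 replicate 1 or 3. ACLY, the cytosolic ATP citrate lyase that makes acetyl-CoA from exported citrate, read 11.36, 11.52 and 11.41 in Scramble and 10.97, 11.10 and 11.05 in siDJ-1 and fell by 0.39 on the log2 scale (adjusted p = 0.0261). The call was lost without any 1 array other than Scramble replicate 1 (log2 fold change -0.42 to -0.35, adjusted p 0.0504 to 0.102), under the 75th percentile shift (-0.26, adjusted p = 0.109) and with no filter (adjusted p = 0.0608), in a range from 0.00168 to 0.109 over 15 alternatives. Under that shift, with no filter and without siDJ-1 replicate 2, another probe of the list was called lower in its place. The other 7 probes of this list ran from -0.59 (adjusted p = 0.0526) to 0.26. The genes that feed the cycle, the pyruvate dehydrogenase subunits, pyruvate carboxylase and the enzymes of glutamine and glutamate entry, had 12 tested probes from -0.18 to 0.54, 0 of which limma called, with 1 higher and 0 lower at an unadjusted p under 0.05 and 0 called by the methods' t-test (1 was called higher without Scramble replicate 1). GOT1 was not analysed here.

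Carriers move cycle intermediates across the inner membrane. Of their 7 tested probes, 2 were called higher and 1 lower. SLC25A1, the citrate carrier, rose on both of its probes. Probe ILMN_2619846 read 7.26, 6.97 and 6.71 in Scramble and 7.77, 7.92 and 7.91 in siDJ-1, and probe ILMN_2919263 read 9.41, 9.43 and 9.41 against 9.90, 9.87 and 10.05, with no overlap in either. Their log2 fold changes were 0.89 (interval 0.52 to 1.25, adjusted p = 0.00857 from limma) and 0.52 (interval 0.30 to 0.75, adjusted p = 0.00991), and both calls held in all 15 alternatives, with the first at 0.495 without background correction. SLC25A10, the dicarboxylate carrier, was at 7.79, 7.56 and 8.0 in Scramble and at 5.26, 6.57 and 6.40 in siDJ-1, where it was detected on 2 of 3 arrays. On these arrays its Scramble mean was at least 3.19 times the siDJ-1 mean, with the dimmest detected signal of an array as the floor. That bound comes from background-corrected values of all 6 arrays and does not take in the spread between arrays. Without the floor the log2 fold change was -1.71 with an interval from -2.52 to -0.89 (adjusted p = 0.0133 from limma). The log2 fold change was -0.80 without background correction and -1.3 without siDJ-1 replicate 1. The call was lost with the methods' t-test (adjusted p = 0.0648, in a range from 0.000243 to 0.0648 over 14 alternatives). The other 4 tested carrier probes, 3 of the oxoglutarate carrier SLC25A11 and 1 of the aspartate and glutamate carrier SLC25A12, ran from -0.37 (adjusted p = 0.0522) to -0.18 and were not called. The number of carrier probes called lower was 2 without background correction (with either scaling) and with array weights, 3 with a trend in the prior variance and 0 with the methods' t-test.

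Among 11 regulators of genes of mitochondria, 18 probes were tested, 3 called higher and 0 lower by limma, with 4 higher and 2 lower at an unadjusted p under 0.05 and 0 called lower by the methods' t-test. The number called lower was 1 without background correction (with either scaling), with the stricter filter, with array weights and without Scramble replicate 1, and 2 with a trend in the prior variance. The called probes belonged to GABPA and GABPB1, which together form the factor GABP, all of them dim. GABPA probe ILMN_2758120 rose by 0.77 (interval 0.21 to 1.32, adjusted p = 0.0470), whereas its other tested probe, ILMN_1252392, gave -0.37 (adjusted p = 0.115). GABPB1 rose by 0.72 and 0.93 on its 2 tested probes (adjusted p = 0.0251 and 0.0450). Without background correction the called GABPA probe rose by 0.37 and the GABPB1 probes by 0.363 and 0.545. Each call was lost in some of the 15 alternatives, 8 for GABPA and 5 and 9 for GABPB1, with adjusted p from 0.0189 to 0.138 for GABPA, 0.0111 to 0.0851 for GABPB1 ILMN_2646381 and 0.00872 to 0.132 for GABPB1 ILMN_2646380. Leaving out 1 array ended the GABPA call for 5 of 6 arrays (all but Scramble replicate 2), that of ILMN_2646381 for 3 (Scramble replicate 2 and siDJ-1 replicates 1 and 3) and that of ILMN_2646380 for 5 (all but siDJ-1 replicate 1), at adjusted p values of 0.0608 to 0.138, 0.0598 to 0.0851 and 0.0689 to 0.112. Of the coactivators, PPARGC1A gave 0.27 (adjusted p = 0.178), PPARGC1B -0.35 (adjusted p = 0.125) and PPRC1 -0.46 (adjusted p = 0.0745, with no overlap between groups), and the 2 probes of TFAM, which packages mitochondrial DNA, gave 0.08 and -0.04 (adjusted p = 0.718 and 0.827). NRF1 gave 0.27 (ILMN_1251184, adjusted p = 0.0662 from limma, no overlap) and 0.48 on a probe not matched to a RefSeq gene (adjusted p = 0.164). ESRRA gave 0.16 (ILMN_2972292, adjusted p = 0.2, no overlap) and 0.04 (adjusted p = 0.805).

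The assembly factors of succinate dehydrogenase had 5 tested probes, 2 of them called higher and 0 lower by limma (0 lower at p under 0.05 before adjustment, and 0 by the methods' t-test). SDHAF3, listed in the file as ACN9 and needed to mature the iron-sulphur subunit, read 8.53, 8.39 and 8.32 in Scramble and 9.51, 9.27 and 9.36 in siDJ-1. It rose to 1.95 times the Scramble level (log2 fold change 0.97, interval 0.70 to 1.23, adjusted p = 0.00343 from limma), and this call held in all 15 alternatives. SDHAF1 rose by 0.52 on 1 probe (adjusted p = 0.0483) and gave 0.40 on the other (adjusted p = 0.137). The call of the first was lost in 8 of 15 alternatives, among them the loss of any 1 array other than Scramble replicate 1 (log2 fold change 0.38 to 0.54, adjusted p 0.0959 to 0.131), in a range from 0.0101 to 0.131.

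Markers of muscle differentiation moved with the groups. Of 24 tested myotube probes (17 genes), 15 were called lower and 0 higher by limma (0 higher at p under 0.05 before adjustment, and 0 by the methods' t-test). The adult fast myosin MYH1 fell by 1.93 and 2.19 on its probes. MYH4 was detected on 1 of 3 siDJ-1 arrays and MYH2 was not detected on any of them. With the same floor as for SLC25A10, their Scramble means were at least 11.6 and 2.07 times the siDJ-1 mean. These bounds also do not take in the spread between arrays. The size of the MYH4 bound comes from background-corrected values, and its deposited intensity was 717.1, 503.6 and 717.3 in Scramble and 159.6, 181.1 and 154.8 in siDJ-1. MYH2 passed the filter only through its 3 Scramble arrays, so that its call among the 15 is no separate evidence. MYH8, ACTN2, TNNC2, TNNT3, TNNI2, the fusion protein MYMK and desmin (DES) also fell, by 0.31 to 1.13 on the log2 scale. The differentiation factor MYOG (0.22 and -0.11), creatine kinase CKM (-0.07), the embryonic myosin MYH3 (-0.17) and skeletal actin ACTA1 (-0.01), the brightest of the list, were not called, and both groups expressed them. The other uncalled probes, of MB (-0.23 and -0.27), TNNT1 (-0.24) and MYH7 (-0.42), were also negative, as were 23 of the 24 tested. Summed linear signal of the myotube probes was 285522, 265957 and 270862 in Scramble and 209636, 222077 and 186289 in siDJ-1. Without siDJ-1 replicate 1, 8 myotube probes were called lower, and by the methods' t-test 9 were.

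Markers of the other cells that the culture could hold were counted in the same way. Among 4 tested probes of undifferentiated myoblasts, CD34 rose (0.54, adjusted p = 0.0238 from limma) and MYOD1 fell (-0.90, adjusted p = 0.00317), while PAX7 was not detected on any array and MYF5 on 1 of each group. The summed signal of this list, in which ITGA7 was brightest, was 5380, 4918 and 5013 in Scramble and 4711, 5138 and 5409 in siDJ-1. Among 14 tested cell cycle probes, MCM5 (-0.94), PCNA (-0.57) and 1 of 2 CCNB1 probes (-0.57) fell and 0 were called higher by limma, with 4 higher at an unadjusted p under 0.05 and 1 called higher by the methods' t-test (2 without background correction, 2 under the 75th percentile shift, 2 with both, 3 with the stricter filter, 2 with a trend in the prior variance and 1 with array weights), and the summed signal, led by CDK1, was 9351, 10320 and 9519 against 8792, 9808 and 9065. Of adipocyte markers only PPARG (1.06, adjusted p = 0.0264) and LPL (-0.59, adjusted p = 0.0441) were tested, and ADIPOQ and PLIN1 were not detected on any array, with a summed signal, led by LPL, of 1982, 1599 and 1920 against 1369, 1654 and 1243. Of osteoblast markers 4 probes were tested and 0 called by limma (1 lower at p under 0.05 before adjustment, 0 by the methods' t-test, and 1 called lower with the stricter filter, with array weights and without siDJ-1 replicate 2), SP7 and RUNX2 were not detected on any array, and the summed signal, led by BGLAP, was 277, 263 and 319 against 207, 272 and 228. The CD34 call was lost without Scramble replicate 2 or 3 or siDJ-1 replicate 1 or 2, the PPARG call without Scramble replicate 3 or any 1 siDJ-1 array, and the LPL call without any 1 array other than siDJ-1 replicate 2, which left 0 probes of the respective list called in that direction. All 3 calls were also lost with no filter and with the methods' t-test, and that of LPL under the 75th percentile shift. The part of these shifts in the values of the cycle enzymes was not tested.

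**Figure D4:**
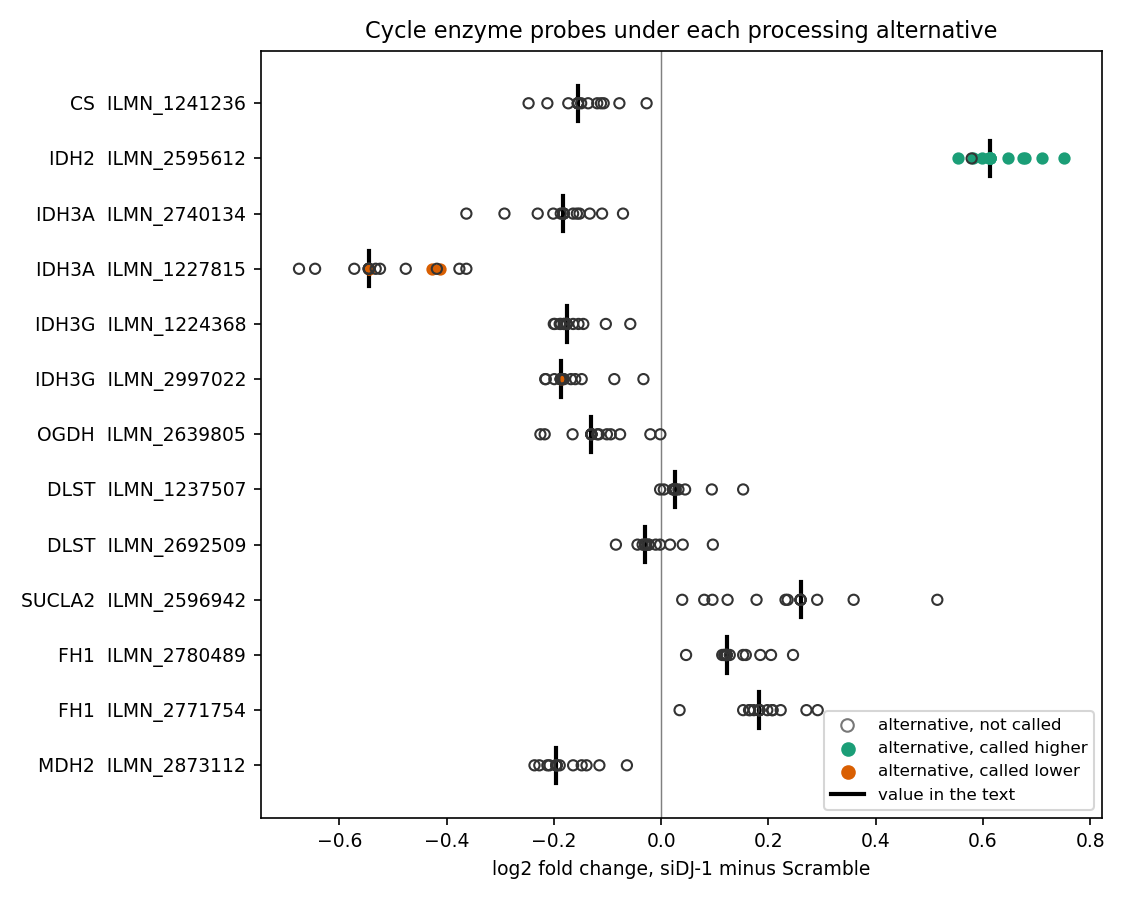
Log2 fold change, siDJ-1 minus Scramble, of each of the 13 tested probes of the listed enzymes under every processing alternative. The black bar is the value given in the text, open circles are alternatives in which the probe was not called, and filled circles those in which it was called higher (green) or lower (orange). IDH2 stays between 0.55 and 0.75 and is called in all alternatives but 1, and only the DLST probes have values on both sides of 0.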

How the data were processed

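Arrays of 3 Scramble and 3 siDJ-1 samples were analysed. The authors scanned the arrays and deposited, for each probe and array, a mean intensity over beads, its standard error, the number of beads and a p-value for detection. This deposited intensity was neither normalized nor background-subtracted. Groups and replicate numbers come from the sample titles. In R 4.3.3 with limma 3.58.1, neqc corrected the background (negative controls inferred from the detection p-value, offset 16), quantile-normalized the arrays and took log2. Probes detected (p under 0.05) on 3 or more of 6 arrays were fitted with lmFit and eBayes, with Benjamini-Hochberg adjustment over all 17890. The pipeline was tested on simulated data. Probes of the listed enzymes were taken by the file's gene name. Other probes were named by Entrez number or accession through the RefSeq table of GRCm38.p6, which 32345 matched. The members and lists were chosen with earlier results of these data known. The genes named are all probes of the listed enzymes and PARK7, the tested probes of the other cycle enzymes, and the called probes of the further lists. Genes of those lists named without a call (TFAM, PPARGC1A, PPARGC1B, PPRC1, NRF1, ESRRA, SLC25A11, SLC25A12, MYOG, CKM, MYH3, ACTA1, MB, TNNT1, MYH7, MYF5 and the undetected markers) were chosen after their values were seen, and ITGA7, CDK1 and BGLAP as the brightest of their lists. In the further lists, 1 gene is not reported here. The number of arrays limits the precision. The alternatives were no background correction, the 75th percentile shift, both together, no filter on detection, a stricter one (p under 0.01 on each of the 6 arrays, which 12962 probes passed), a trend in the prior variance, array weights, the methods' t-test, the replicate block, each array left out, and the mean of the probes of a gene.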

Additional observations from a re-analysis of the deposited data

How the results depend on the processing

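The PARK7 knockdown kept its direction and its call in all 15 alternatives, at log2 fold changes from -1.24 to -1.003. The listed enzymes had 1 probe called higher, IDH2, and this number was the same in every alternative other than leaving out 1 array, where it was 0 to 1. The number called lower was 0, and it was 1 without background correction, 1 without background correction and with the 75th percentile shift, 1 with the stricter filter, each time IDH3A ILMN_1227815, and 2 with a trend in the prior variance, which added IDH3G ILMN_2997022. The causes were not tested. The median log2 fold change of the listed enzymes, -0.13, was -0.027 under the 75th percentile shift, -0.023 with array weights and -0.12 to -0.010 with 1 array left out. All tested probes gave 5387 calls, 3519 with no filter, where 45281 probes share the adjustment, and 2559 to 5271 with 1 array left out, where fewer samples remain. The lowest counts came without siDJ-1 replicate 1 (2559) and siDJ-1 replicate 3 (2712). The methods' t-test called 3674 after adjustment, and 7026 probes had an unadjusted p under 0.05.

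Of 202 values of the 13 probes of the listed enzymes under alternatives, 192 kept direction and side of the threshold, 1 lost a call, 5 gained one and 4 changed sign. The changes of sign were all in DLST: ILMN_1237507 was -0.0018 as the mean of the probes of the gene, and ILMN_2692509 was 0.097 under the 75th percentile shift, 0.040 with that shift and no background correction, and, with 1 array left out, from -0.084 to 0.017, positive without siDJ-1 replicate 3. Of 163 values of the 11 called probes of the lists of enzymes, carriers, regulators and assembly factors (the called probes of the cell type markers were followed only as counts), 58 lost the call and 0 changed sign. Of 330 counts of called probes in all other lists, 86 moved by over 1.5 times. SUCLA2 and the dim SUCLG2, GABPA and GABPB1 probes lie close to background, which limits their fold changes.

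With the replicate number as a block (the replicate block) 4350 probes were called, the PARK7 log2 fold change was -1.16, 1 listed probe was called higher and 0 lower, and their median was -0.13. The probes of the other lists that were not called with the block were IDH3B (adjusted p = 0.0784 from limma), SUCLG2 ILMN_2743139 (0.086), ACLY (0.0517), SDHAF1 (0.0593), GABPA ILMN_2758120 (0.0966) and GABPB1 ILMN_2646380 (0.0614). The adipocyte list had 0 probes called lower in place of 1, and the myotube list 12 in place of 15. The deviations of same-numbered samples from their group means correlated at 0.0537, 0.0474 and 0.0199, and every sample correlated best with its own number, which is a hint from the data and not from the design. All were under 0.1, so that the samples were treated as sharing only a number.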
